A study of Mus musculus with 4 samples.

Results

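The chemokine and chemokine receptor genes measured here were 52 of the 16504 named genes on the arrays, 34 ligands and 18 receptors. They were taken by symbol alone, as every gene named Ccl, Cxcl, Ccr or Cxcr followed by a digit, or Cx3c, Xcl or Xcr. No measured value entered this rule, but the family was chosen with earlier results of these data known. Liver RNA came from obese mice of polygenic background, taken on day 14. They were fed linoleic acid isomers with conjugated double bonds (CLA) or, as controls, linoleic acid itself (LA). The samples were pools of 5 or 4, and each of the 4 arrays set 1 CLA-fed pool against 1 LA-fed pool. CLA was labelled with Cy5 on arrays 1 and 2, and with Cy3 on arrays 3 and 4. The labels give neither the age nor the sex of the mice, nor which pools recur between arrays, so every p-value below measures only the spread between these 4 arrays. RNA of whole liver mixes hepatocytes with resident and incoming leukocytes, and fewer cells of a type cannot be told apart from less RNA per cell. A ratio of CLA over LA carries no level, so the labelled tissue could not be checked against the level of its markers.

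Chemokines are small secreted proteins that guide leukocytes along concentration gradients. They act through receptors of the G protein-coupled class, and many ligands share a receptor. In liver, Kupffer cells, sinusoidal endothelium, stellate cells and hepatocytes can all release chemokines. Ligands of the receptor Ccr2 draw in monocytes, ligands of Cxcr2 draw in neutrophils, and the interferon-induced ligands of Cxcr3 draw in activated T cells and natural killer cells.

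The direction of the deposited log ratios is not stated, and all results were therefore given in 2 readings. In the dye reading the values are Cy5 over Cy3, so that the part of a value that changes sign with the dye orientation is CLA over LA. In the turned reading each value is CLA over LA as it stands, and the part that keeps its sign is the effect. Over the named genes arrays 1 and 2 correlated at a Pearson r of 0.37 and arrays 3 and 4 at 0.73, whereas pairs of opposite orientation ran from -0.63 to -0.20. These correlations are across genes, which are not independent replicates. Another 473 features, none with a gene name, had ratios beyond 10-fold whose sign followed the dyes, with a median log2 ratio of -8.67, -7.66, 8.75 and 8.54 on arrays 1 to 4. In the dye reading all 473 would be lower with CLA and none higher. Fitted values of the named genes ran from -5.78 to 1.55 in the dye reading and from -1.25 to 1.57 in the turned reading. The reason for this one-sidedness was not tested, and neither reading was chosen by these values. Values are log2 ratios, in which 1 is a 2-fold ratio, and a positive fitted value means higher with CLA in the reading named. They rest on a log base of 10 in the deposited values, which is not stated either; with a base of 2 every log2 value would be smaller by a factor of 3.32, with the same tests.

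Of the 52 chemokine genes 6 passed the test in the dye reading, 3 higher and 3 lower with CLA (limma, adjusted p under 0.05). All 6 were ligands: Cxcl10, Cxcl13 and Ccl1 rose and Ccl2, Ccl17 and Cxcl14 fell. Among all genes 17.1% passed in this reading, 7.37% higher and 9.72% lower, against 11.5% of the chemokine genes, so the family held no larger share of calls than the arrays as a whole. Of those calls over all genes 43.1% were higher with CLA, against 35.1% with arrays scaled to one spread and 28.3% without a dye term. In the turned reading 0 chemokine genes passed, and 0% of all genes did, with a lowest adjusted p of 0.352 in limma, although 8 chemokine genes and 2235 of all genes had an unadjusted p under 0.05. The median fitted value of the 52 genes was 0.02 in the dye reading and 0.06 in the turned reading, against 0.02 and 0.0006 for all genes. By size without sign, their medians were 0.20 and 0.15, against 0.22 and 0.12 for all genes.

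The calls in the dye reading were not kept when single arrays were left out. The lowest adjusted p among the 6 ligands was 0.0626 without array 1, 0.0539 without array 2, 0.118 without array 3 and 0.163 without array 4 (limma). Their fitted values then lay between 0.80 and 1.20 times those with all arrays. Each kept its sign, but that was fixed in advance. For each ligand the values on arrays 1 and 2 were opposite in sign to those on arrays 3 and 4. With array 1 left out, Ccl11, a ligand for eosinophils, was at 0.86 in the dye reading. For CLA in Cy5 that value rests on array 2 alone, where Ccl11 was at 1.30 against 0.40 on array 1.

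**Figure D1:**
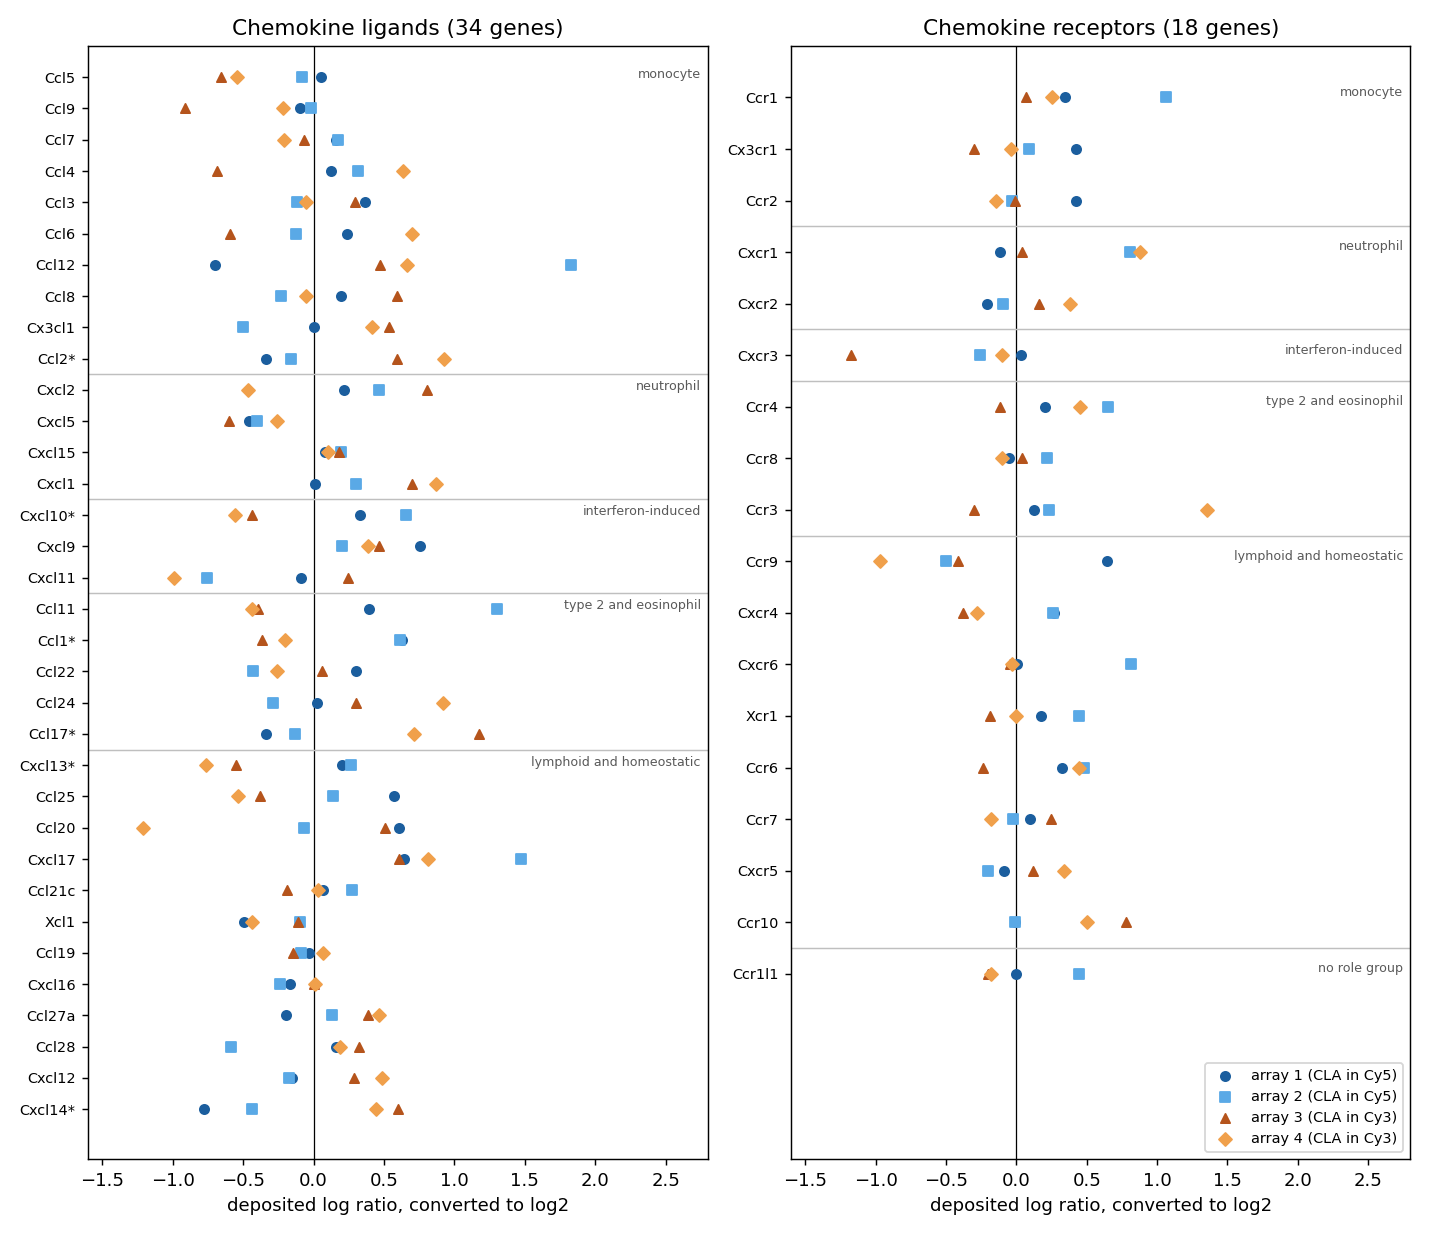
Deposited log ratios, converted to log2, of the 34 ligands (left) and 18 receptors (right), with 1 symbol per array and genes grouped by role. An asterisk marks the 6 ligands that passed in the dye reading. Their blue points (CLA in Cy5) and orange points (CLA in Cy3) lie on opposite sides of 0, as in 42.9% of all genes.

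The signs of the values themselves need no choice of reading. Of the 52 genes, 18 changed sign with the dye orientation on all 4 arrays (34.6%, against 42.9% of all genes), 10 of them positive on arrays 1 and 2, and 8 negative there. A single sign on all 4 arrays was seen in 8 (15.4%, against 9.64% of all genes). The 5 with positive values throughout were Cxcl1, Cxcl9, Cxcl15, Cxcl17 and Ccr1, and the 3 with negative values throughout were Ccl9, Cxcl5 and Xcl1. The other 26 followed neither pattern. Of the 34 ligands 7 kept a single sign, as did 1 of the 18 receptors, a difference that was not tested.

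Ligands and receptors were then set side by side on each array. The median log2 ratio of the 34 ligands was 0.07, -0.08, 0.21 and 0.02 on arrays 1 to 4. For the 18 receptors it was 0.11, 0.23, -0.08 and -0.02. Receptors thus stood above ligands on arrays 1 and 2, and below them on arrays 3 and 4, while the medians of all genes stayed between -0.02 and 0.01. In the dye reading the receptors had a median of 0.14 with 13 of 18 values positive, and the ligands a median of 0.0013 with 18 of 34 positive, beside 52.5% positive among all genes. In the turned reading the medians were 0.06 for receptors and 0.08 for ligands, with 15 of 18 and 21 of 34 positive, beside 50.1% among all genes. No receptor passed in either reading (limma, with 2 of 18 at an unadjusted p under 0.05 in each), while 6 of 34 ligands passed in the dye reading, a share near the 17.1% of all genes, and the difference in calls was not tested. Within the ligands, the 20 of the CC class (adjacent first cysteines) had medians of 0.01 and 0.08 in the dye and turned readings, and the 12 of the CXC class had -0.0009 and 0.06.

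**Figure D2:**
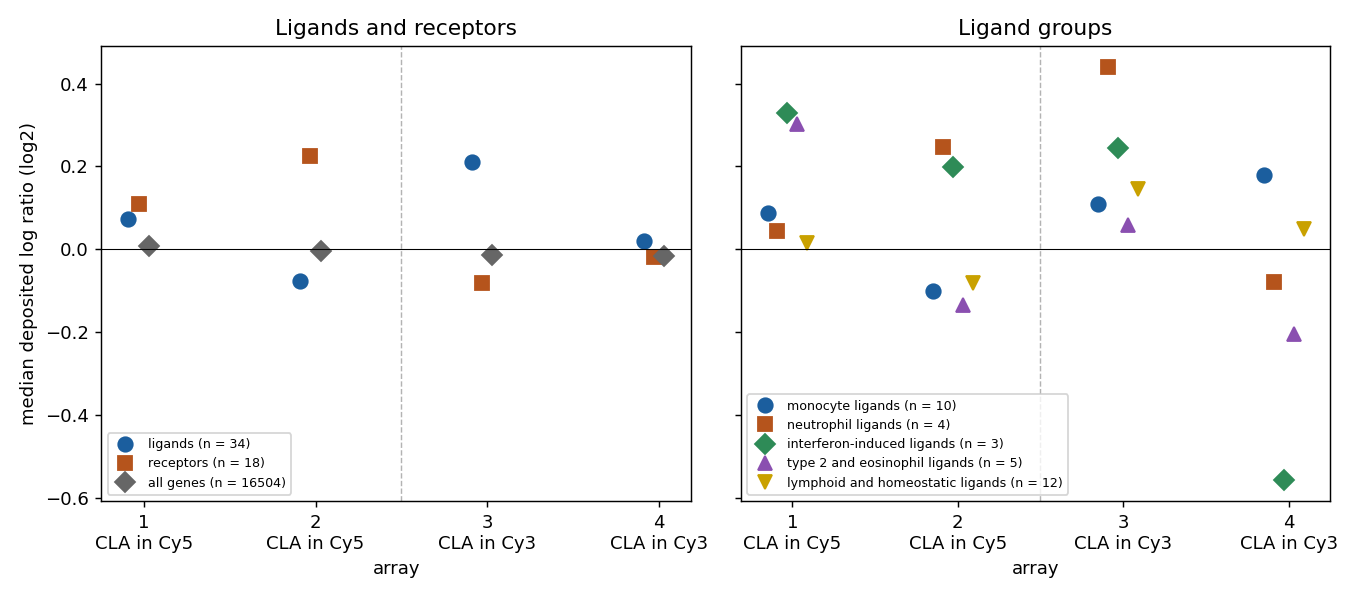
Median deposited log2 ratio per array for ligands, receptors and all genes (left) and for 5 groups of ligands (right), where the dashed line separates the dye orientations. Receptors lie at 0.11 and 0.23 on arrays 1 and 2, against -0.08 and -0.02 on arrays 3 and 4, and no ligand group keeps a single sign on all 4 arrays.

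Among the ligands that draw in monocytes, Ccl2, the main ligand of Ccr2, was the 1 of 10 that passed, beside 17.1% of all genes. Its log2 ratios were -0.34 and -0.16 on arrays 1 and 2 but 0.59 and 0.93 on arrays 3 and 4. Among all genes 42.9% changed sign with the dye orientation in this way. Such a change follows largely from passing in the dye reading, so it is no further support for a call. Ccl2 fell by 0.50 (SE 0.10 over n = 4 arrays, limma adjusted p = 0.0391) in the dye reading, and in the turned reading it was at 0.25 (SE 0.10, adjusted p = 0.369). The related Ccr2 ligands did not pass. Ccl7 had 0.16, 0.17, -0.07 and -0.21 on arrays 1 to 4, a small difference between the orientations of the opposite sign, at 0.15 in the dye reading and 0.01 in the turned reading. Ccl12 was scattered, at -0.70, 1.83, 0.47 and 0.67, and its fitted values of -0.0028 and 0.57 both carried an SE of 0.42. Ccl8, named as a monocyte chemoattractant protein, had 0.20, -0.23, 0.59 and -0.05, with both signs within each orientation.

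Ccl5, a ligand of Ccr1, was near 0 on arrays 1 and 2 (0.05 and -0.08) and low on arrays 3 and 4 (-0.66 and -0.54). It was at 0.29 in the dye reading (SE 0.08, adjusted p = 0.070 in limma) and at -0.31 in the turned reading (adjusted p = 0.352). Ccl3 and Ccl4, the macrophage inflammatory proteins, lay close to 0 in the dye reading, at 0.0026 and 0.12, and at 0.12 and 0.10 in the turned reading. Ccl4 differed in sign between arrays 3 and 4, with -0.69 and 0.63. Ccl6 and Ccl9, ligands of Ccr1 in mice, had 0.24, -0.12, -0.60 and 0.70 for Ccl6 and -0.10, -0.02, -0.91 and -0.21 for Ccl9. Cx3cl1, the membrane-bound ligand of Cx3cr1, was the only member with 2 probes, and they differed on arrays 3 and 4: 1 probe gave 1.15 and 0.68 there and the other gave -0.09 and 0.14. Their mean was at -0.36 in the dye reading (adjusted p = 0.0895 in limma) and 0.11 in the turned reading.

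Receptors of monocytes and macrophages were represented by Ccr1, Ccr2 and Cx3cr1. Ccr1, the receptor of Ccl3, Ccl5, Ccl6 and Ccl9, was above 0 on every array, with 0.34, 1.06, 0.07 and 0.25. Its fitted value was 0.43 in the turned reading (SE 0.14, n = 4, adjusted p = 0.356 in limma) and 0.27 in the dye reading (adjusted p = 0.228). Array 2 held its highest value, as it did for Ccl12, and without that array Ccr1 was at 0.25 in the turned and 0.09 in the dye reading. Without array 1 its dye-reading value was 0.45. Ccr2, the receptor of Ccl2, had 0.42 on array 1 and -0.03, -0.01 and -0.15 on arrays 2 to 4. Cx3cr1 had 0.42, 0.09, -0.30 and -0.04. Neither passed, at 0.14 and 0.21 in the dye reading and 0.06 and 0.04 in the turned reading, and Cx3cr1 was at 0.13 in the dye reading without array 1. Macrophage and Kupffer cell markers, given beside this group, numbered 12 measured of 15, with medians of 0.01, -0.19, -0.11 and 0.19 on arrays 1 to 4. Of these 12, 2 passed in the dye reading, a share near the 17.1% of all genes. Both were lower with CLA, the scavenger receptor Marco at -0.54 and the complement gene C1qa at -0.52 (adjusted p = 0.0436 and 0.0461 in limma). The list as a whole was divided, with 6 of 12 values above 0 and a range from -0.60 for Lyz2 to 0.43 for Adgre1, neither of which passed. The part of these markers in the values of Ccl2 was not tested.

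The 4 neutrophil ligands, measured of 5 listed, gave 0 calls in limma, beside 17.1% of all genes in the dye reading and 0% in the turned reading. An unadjusted p under 0.05 was seen for 1 in the dye reading and 2 in the turned reading. Of the 4 ligands 3 kept a single sign on all arrays, against 9.64% of all genes. Cxcl1 had 0.01, 0.30, 0.70 and 0.87 on arrays 1 to 4, positive throughout and higher on arrays 3 and 4. It was at 0.47 in the turned reading (SE 0.09, n = 4, adjusted p = 0.352 in limma) and at -0.32 in the dye reading (adjusted p = 0.0796). Cxcl5, which lies near it on chromosome 5, was negative throughout, with -0.46, -0.40, -0.60 and -0.26. Its fitted value was -0.43 in the turned reading (SE 0.09, adjusted p = 0.352 in limma) and 0.0008 in the dye reading, so that Cxcl1 and Cxcl5 stood on opposite sides of 0 in the turned reading. Cxcl2 had 0.22, 0.46 and 0.81 on arrays 1 to 3 and -0.47 on array 4, with fitted values of 0.26 in the turned and 0.08 in the dye reading. Cxcl15, known mainly from lung, stayed between 0.08 and 0.19 on all arrays.

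Neither neutrophil receptor passed. Cxcr2, which binds Cxcl1, Cxcl2 and Cxcl5, had -0.21 and -0.09 on arrays 1 and 2 but 0.16 and 0.38 on arrays 3 and 4, at -0.21 in the dye reading (SE 0.09, n = 4, adjusted p = 0.148 in limma) and 0.06 in the turned reading. Cxcr1 had -0.12, 0.81, 0.04 and 0.88, with high values on arrays 2 and 4 and thus in both orientations. Markers of neutrophils and granulocytes gave 0 calls among 11 measured of 12 (limma), beside 17.1% of all genes in the dye reading and 0% in the turned reading. Of these 11, 3 had an unadjusted p under 0.05 in the dye reading and 1 in the turned reading. Their medians were 0.21 and 0.42 on arrays 1 and 2 but -0.17 and 0.07 on arrays 3 and 4. The medians of the 4 neutrophil ligands were 0.04, 0.25, 0.44 and -0.08.

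The interferon-induced ligands Cxcl9, Cxcl10 and Cxcl11 share the receptor Cxcr3 and lie next to each other on chromosome 5. To show how far their starts differ in sequence, the 250 bases before the start of Cxcl10 (chr5:92348890-92349139, minus strand) and Cxcl9 (chr5:92328080-92328329, minus strand) are printed with those of the neutrophil ligand Cxcl1 (chr5:90890995-90891244, plus strand). They are RefSeq's, of build GRCm38.p6, and run from 5′ to 3′ toward the gene. Capitals mark the core of the interferon response element, GAAANNGAAA, and 2 forms of the kappa B motif, GGGNNTTCC and GGGNNNTTCC, on either strand; the 2 forms can overlap each other.
Cxcl10: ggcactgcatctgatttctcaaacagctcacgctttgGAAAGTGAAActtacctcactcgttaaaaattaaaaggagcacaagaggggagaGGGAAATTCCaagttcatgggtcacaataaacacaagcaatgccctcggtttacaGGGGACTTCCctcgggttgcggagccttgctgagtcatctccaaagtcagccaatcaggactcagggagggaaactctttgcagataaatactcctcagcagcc
Cxcl9: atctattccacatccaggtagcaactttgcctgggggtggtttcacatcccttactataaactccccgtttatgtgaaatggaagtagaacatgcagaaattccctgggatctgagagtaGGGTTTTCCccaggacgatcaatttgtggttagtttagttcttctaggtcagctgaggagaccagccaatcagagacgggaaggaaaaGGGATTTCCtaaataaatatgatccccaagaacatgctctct
Cxcl1: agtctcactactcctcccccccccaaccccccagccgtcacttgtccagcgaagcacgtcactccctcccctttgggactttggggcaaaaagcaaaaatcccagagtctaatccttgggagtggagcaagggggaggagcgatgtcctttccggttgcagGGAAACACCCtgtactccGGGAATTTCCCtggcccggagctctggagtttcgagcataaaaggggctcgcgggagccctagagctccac

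The window of Cxcl10 held the interferon element once, with its first base 213 bases before the start, and kappa B motifs that began 159 and 104 bases before it. The Cxcl9 window held kappa B motifs at 130 and 42 bases and no match to the interferon element. In the Cxcl1 window kappa B matches began 89 and 71 bases before the start, the second overlapping a match on the opposite strand that began at 70. Promoter windows were found for 38 of the 52 genes, 23 ligands and 15 receptors, and Cxcl11 was not among them. The interferon element occurred in 3 of these 38, the ligands Ccl19, Cxcl10 and Cxcl14, against 2.98% of all 32851 windows. At least 1 form of the kappa B motif occurred in 10 of the 38, against 8.26% of all windows. The TATA box, TATAAA on either strand, occurred in 11 of the 38 against 12.4%, and the gamma-activated site, TTCNNNGAA, in 4 against 7.02%. In these counts a gene was taken once if any of its windows matched, whereas each percentage is of single windows. A match is a description of these letters only.

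The 3 interferon-induced ligands differed from one another. Cxcl10 had 0.33 and 0.66 on arrays 1 and 2 but -0.43 and -0.56 on arrays 3 and 4, a change of sign seen in 42.9% of all genes. It rose by 0.49 in the dye reading (SE 0.09, n = 4, adjusted p = 0.0386 in limma) and was at -0.0016 in the turned reading (adjusted p = 0.995). Cxcl9 was positive on every array, with 0.76, 0.20, 0.46 and 0.39, which gave 0.45 in the turned reading (SE 0.12, adjusted p = 0.352 in limma) and 0.03 in the dye reading. Cxcl11 had -0.09, -0.76, 0.24 and -0.99, low on arrays 2 and 4, at -0.40 in the turned and -0.02 in the dye reading with an SE of 0.24. Leaving out array 2, 3 or 4 gave -0.23, -0.71 and -0.09 in the turned reading, in that order. Their receptor Cxcr3 had 0.03, -0.26, -1.18 and -0.10, with array 3 far below the others, and did not pass in either reading (adjusted p = 0.373 and 0.441 in limma).

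Genes of the wider interferon response were also mixed. Of 25 listed genes 23 were measured, and 8 passed in the dye reading, 4 lower and 4 higher, beside 17.1% of all genes (9.72% lower and 7.37% higher). The 4 with the smallest p were all lower: the interferon regulator Irf7 fell by 0.77, the ubiquitin-like Isg15 by 0.81, and the immunoproteasome subunit genes Psmb8 and Psmb9 by 0.66 and 0.47. The 4 that rose, named after their values were seen, were Iigp1 at 0.64, Oasl2 at 0.53, Ifit1 at 0.47 and Ifit3 at 0.42. The median of the list was 0.04 in the dye reading and -0.04 in the turned reading, beside 0.02 and 0.0006 over all genes. T cell markers had 1 call among 11 measured genes, the kinase gene Zap70, which fell by 0.65. That list was divided, with 5 of 11 values above 0 in the dye reading and a range from -0.65 to 0.52. Natural killer cell markers had 0 calls among 9 (limma, dye reading), with 2 at an unadjusted p under 0.05. Both counts stand beside 17.1% of all genes. The medians over arrays 1 to 4 were -0.15, 0.22, -0.09 and 0.04 for T cells and 0.17, 0.06, 0.14 and 0.0031 for natural killer cells.

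**Figure D3:**
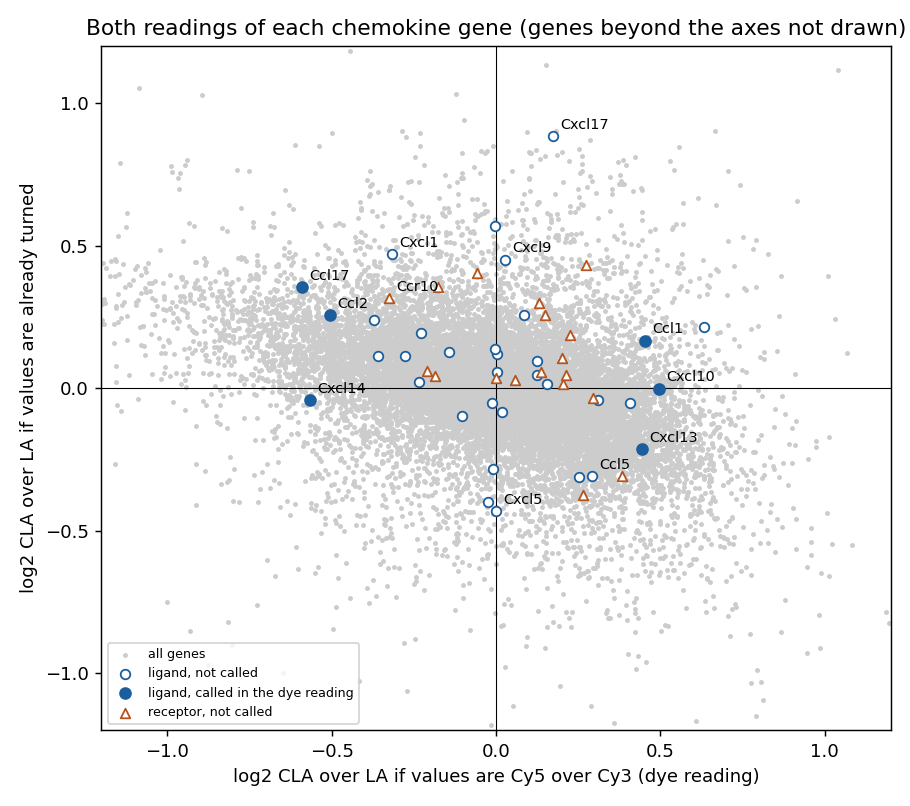
Fitted log2 ratio of CLA over LA of each chemokine gene in the dye reading (x axis) against the turned reading (y axis), over all genes in grey, where genes beyond the axes are not drawn. The 6 filled circles, from -0.59 to 0.49 on the x axis, passed in the dye reading, and Cxcl17 at 0.88 is the highest chemokine gene on the y axis.

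Ligands linked to type 2 responses and eosinophils numbered 5 measured of 6 listed. They held 2 of the 6 calls in the dye reading, in opposite directions, beside 17.1% of all genes. The difference in share was not tested. Ccl1, the ligand of Ccr8, had 0.63 and 0.61 on arrays 1 and 2 but -0.37 and -0.21 on arrays 3 and 4, and it rose by 0.45 in the dye reading (SE 0.08, n = 4, adjusted p = 0.0347 in limma). Ccl17, a ligand of Ccr4, had -0.34 and -0.13 on arrays 1 and 2 but 1.18 and 0.71 on arrays 3 and 4. It fell by 0.59 in the dye reading (SE 0.11, adjusted p = 0.038 in limma), a call lost with arrays scaled to one spread (adjusted p = 0.0548). Both genes changed sign with the orientation, as 42.9% of all genes did. In the turned reading Ccl1 was at 0.17 (adjusted p = 0.415) and Ccl17 at 0.35 (adjusted p = 0.356). Ccl22, which shares Ccr4 with Ccl17, had 0.30, -0.43, 0.06 and -0.26 and fitted values of 0.02 and -0.08. The eosinophil attractant Ccl11 had 0.40 and 1.30 on arrays 1 and 2 but -0.40 and -0.44 on arrays 3 and 4. That was the largest fitted value of the family in the dye reading, 0.63 with an SE of 0.17, and it did not pass with all arrays (adjusted p = 0.0641 in limma). Ccl24, which shares the receptor Ccr3 with Ccl11, had 0.03, -0.29, 0.30 and 0.92, the opposite sign, at -0.37 in the dye and 0.24 in the turned reading.

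The matching receptors Ccr3, Ccr4 and Ccr8 did not pass, nor was any at an unadjusted p under 0.05. Ccr4 had 0.21, 0.65, -0.12 and 0.46, at 0.30 in the turned reading (adjusted p = 0.410 in limma), against 0.19 without array 2 and 0.16 without array 4. Ccr3 had 0.12, 0.23 and -0.30 on arrays 1 to 3 and 1.36 on array 4, at 0.35 in the turned reading with an SE of 0.28. Without array 4 it was at -0.06 in that reading, so its value rests on 1 array. Ccr8 stayed between -0.10 and 0.22. Ccr1l1, a receptor-like gene beside Ccr1 on chromosome 9 that was placed in no group, had -0.01, 0.44, -0.20 and -0.18.

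Ligands of lymphoid tissue and steady-state homing made up 12 genes. Cxcl13, which draws B cells into follicles, had 0.20 and 0.26 on arrays 1 and 2 but -0.55 and -0.77 on arrays 3 and 4. It rose by 0.45 in the dye reading (SE 0.08, n = 4, adjusted p = 0.0373 in limma) and was at -0.21 in the turned reading (adjusted p = 0.372). Cxcl14, a ligand of epithelia and other tissues, had -0.78 and -0.44 on arrays 1 and 2 but 0.60 and 0.44 on arrays 3 and 4. It dropped by 0.57 in the dye reading, with the lowest adjusted p of the family (SE 0.10, n = 4, adjusted p = 0.0334 in limma), and was at -0.04 in the turned reading. Both genes changed sign with the orientation, as 42.9% of all genes did, and the 2 differed in direction.

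Cxcl17, a chemokine of mucosal surfaces, had the highest fitted value of the family in the turned reading. Its log2 ratios were 0.64, 1.47, 0.61 and 0.81 on arrays 1 to 4, above 0 in both orientations and highest on array 2. The fitted value was 0.88 (SE 0.16, n = 4), a value that did not pass (adjusted p = 0.352 in limma, the lowest in that reading), and in the dye reading it was at 0.17 (adjusted p = 0.464). Xcl1, made by natural killer and T cells, had -0.49, -0.10, -0.11 and -0.44, negative throughout, at -0.28 in the turned reading (adjusted p = 0.373). Cxcl12, the ligand of Cxcr4, had -0.15, -0.17, 0.29 and 0.49, and Ccl25, the gut and thymus ligand of Ccr9, had 0.57, 0.14, -0.38 and -0.53. Neither passed in the dye reading, at -0.28 and 0.41 (adjusted p = 0.0812 and 0.0635 in limma).

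The remaining ligands of the group gave smaller or more scattered values. Cxcl16, the ligand of Cxcr6, stayed between -0.24 and 0.01, and Ccl19, a ligand of Ccr7, between -0.15 and 0.07. Ccl21c, another Ccr7 ligand, stayed between -0.19 and 0.27, and near-identical copies of this gene mean that its probe may read more than 1 of them. Ccl20, the ligand of Ccr6, had 0.61, -0.07, 0.51 and -1.22 on arrays 1 to 4, with both signs in each orientation and an SE of 0.31. Ccl27a and Ccl28 share Ccr10, and were at -0.23 each in the dye reading and at 0.19 and 0.02 in the turned reading.

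Receptors of lymphoid and homing cells had 6 of 8 fitted values above 0 in each reading. Among all genes 52.5% were above 0 in the dye reading and 50.1% in the turned reading. These receptors gave 0 calls in limma, beside 17.1% and 0% of all genes. An unadjusted p under 0.05 was seen for 2 in the dye reading and 1 in the turned reading. Ccr10 had -0.01 on both array 1 and array 2 and 0.78 and 0.50 on arrays 3 and 4. It was at -0.33 in the dye reading (SE 0.09, n = 4, adjusted p = 0.0673 in limma) and at 0.32 in the turned reading (adjusted p = 0.352). Cxcr4 had 0.27 and 0.26 on arrays 1 and 2 but -0.38 and -0.28 on arrays 3 and 4, the reverse of its ligand Cxcl12, at 0.30 in the dye reading (SE 0.08, adjusted p = 0.0638). Cxcr5, the receptor of Cxcl13, had -0.09, -0.20, 0.12 and 0.34, opposite in sign to its ligand on every array. Among all genes 42.9% changed sign with the orientation. Ccr9, the receptor of Ccl25, had 0.65 on array 1 and -0.50, -0.42 and -0.97 on arrays 2 to 4. It shared the sign of its ligand on arrays 1, 3 and 4. Ccr6 had 0.33, 0.48, -0.23 and 0.45, and was at 0.26 in the turned reading (adjusted p = 0.445 in limma), against 0.43 without array 3 and 0.09 without array 4. Cxcr6 had 0.82 on array 2 and lay between -0.04 and 0.01 on the others. Xcr1 had 0.17, 0.44, -0.19 and -0.0037, and Ccr7 stayed between -0.18 and 0.24. B cell and plasma cell markers had 1 call among 9 measured of 10, beside 17.1% of all genes. It was Pax5, which fell by 0.69 in the dye reading, while Cxcl13 rose. Of the 9 markers 3 were above 0 in that reading.

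Position on the chromosome was set beside the values, since chemokine genes lie in clusters. Of the 52 genes 14 were on chromosome 11, 11 on chromosome 9 and 9 on chromosome 5. On chromosome 11 the run Ccl2, Ccl7, Ccl11, Ccl12, Ccl8 and Ccl1 gave dye-reading values of -0.50, 0.15, 0.63, -0.0028, -0.14 and 0.45, so that Ccl2 and Ccl1, which passed in opposite directions, stood at the 2 ends of that run. On chromosome 5 the order Cxcl9, Cxcl10, Cxcl11 and Cxcl13 gave 0.03, 0.49, -0.02 and 0.45. On chromosome 9 the order Ccr9, Cxcr6, Xcr1, Ccr1, Ccr1l1, Ccr3 and Ccr2 gave 0.38, 0.22, 0.20, 0.27, 0.20, -0.18 and 0.14, of which none passed. The order of the genes is that of RefSeq's GRCm38.p6.

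**Figure D4:**
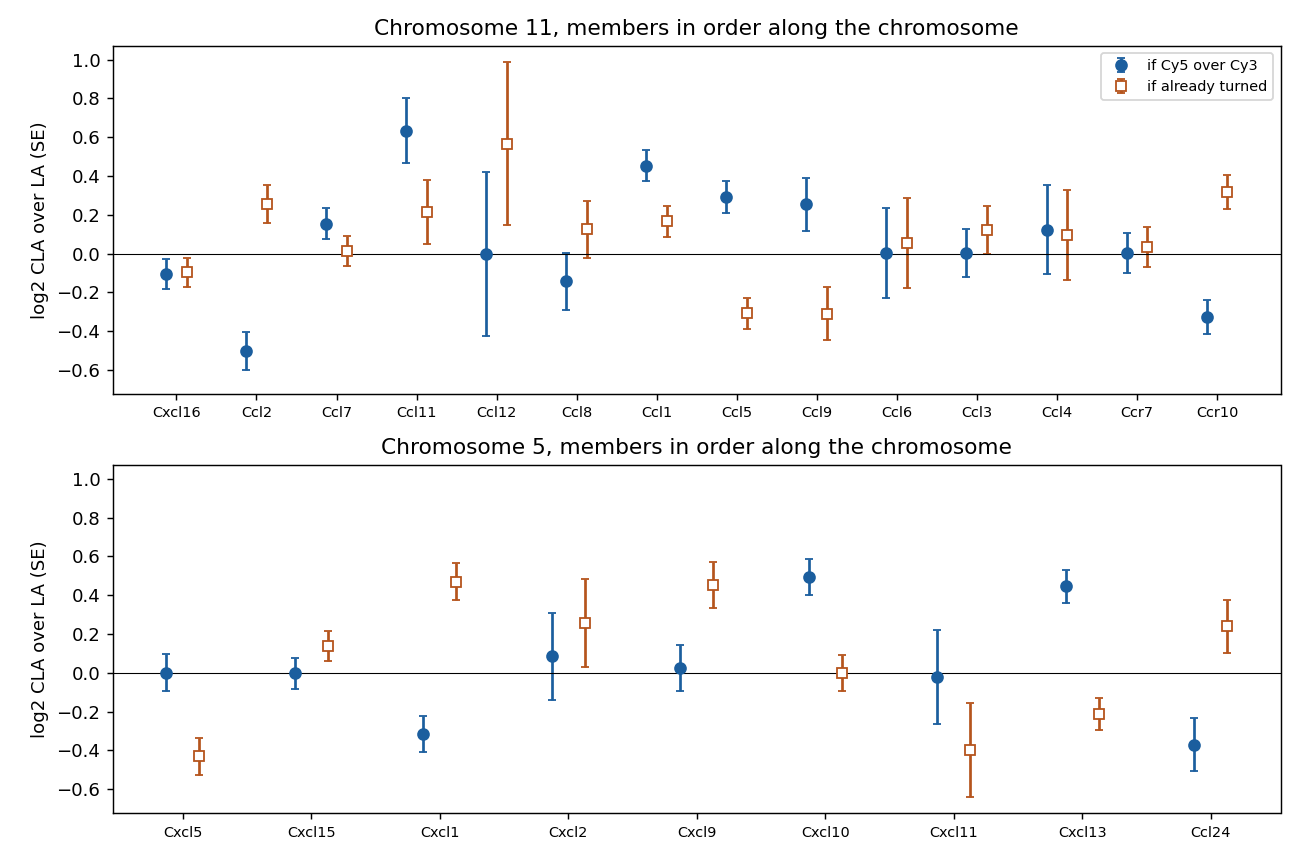
Fitted log2 ratio of CLA over LA with its SE for the chemokine genes of chromosome 11 (top) and chromosome 5 (bottom), in their order along the chromosome, with filled circles for the dye reading and open squares for the turned reading. Ccl2 at -0.50 and Ccl1 at 0.45 lie in the same run of chromosome 11 on opposite sides of 0 in the dye reading.

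Genes of the family, or related to it, whose names do not carry the chemokine stem were counted apart. All 9 were measured. In the dye reading all 9 were above 0, against 52.5% of all genes, and 2 passed, beside 17.1% of all genes. In the turned reading 4 were above 0, against 50.1% of all genes. Ackr2, a decoy receptor that clears inflammatory CC chemokines, had 0.47, 0.36, -0.89 and -0.67 on arrays 1 to 4 and rose by 0.60 in the dye reading (SE 0.09, n = 4, adjusted p = 0.0274 in limma). Ppbp, a platelet chemokine that gives a Cxcr2 ligand, had 0.36, 0.33, -0.63 and -1.10 and rose by 0.60 (adjusted p = 0.0352). In the turned reading they were at -0.18 and -0.26.

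Signalling genes downstream of the receptors gave 8 calls among 31 measured of 35 in the dye reading, 6 lower and 2 higher, beside 17.1% of all genes (9.72% lower and 7.37% higher). Itgal, the integrin chain by which leukocytes adhere after chemokine signals, fell by 1.53 (adjusted p = 0.00453 in limma), with -1.48 and -1.26 on arrays 1 and 2 but 1.68 and 1.71 on arrays 3 and 4. The phospholipase gene Plcb3 fell by 0.93, the integrin chain gene Itgam by 0.87 and the kinase gene Ptk2b by 0.60. The list median was -0.22 in the dye reading and 0.03 in the turned reading. Among 23 measured inducers and co-induced inflammatory genes, 4 passed in the dye reading, 2 in each direction, a share near the 17.1% of all genes. Il6, a cytokine of inflammation, rose by 0.73 and the adaptor gene Myd88 by 0.36, while the bacterial sensor Tlr2 fell by 0.61 and the kappa B subunit gene Relb by 0.51. The list median was 0.06 in the dye and -0.01 in the turned reading.

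Markers of other cells gave 0 calls in the turned reading (limma), and their calls in the dye reading stand beside 17.1% of all genes. Sinusoidal endothelium had 2 among 10, Fcgr2b higher at 0.34 and Stab1 lower at -0.41. Stellate cells and fibroblasts had 1 among 10, Acta2, which fell by 1.15. Their list was divided, with 6 of 10 values above 0 in the dye reading and a range from -1.15 to 0.30. Hepatocyte markers had 2 among 8, with Trf, the transferrin gene, and Apob lower at -0.97 and -0.68. Of those 8 markers 3 were above 0 in the dye reading. Pancreas acinar markers had 0 among 10, and 0 at an unadjusted p under 0.05, yet their median was 1.56 on array 4 against 0.11, 0.12 and -0.16 on arrays 1 to 3, so array 4 stood apart there. The part of these differences in the chemokine values was not tested.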

How the data were processed

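RNA of CLA-fed and LA-fed mouse livers was read on 4 arrays with 2 colours. The table the authors deposited holds 22393 features and 1 log ratio per array. The deposited values were taken as log10 ratios; their base, direction and normalization are not stated in the labels or the file header. They were multiplied by 3.32 to give log2. Column medians lay between -0.0023 and 0.0010. No scanner intensities entered, so the signal behind a ratio is unknown, dim spots were kept, and the number of arrays limits the precision. A single gene symbol was given for 18218 features, several for 16 (left out) and none for 4159. Replicate spots (at least 8 features of 1 accession) were averaged, then probes of a gene, which gave 16504 genes. Of the chemokine family in RefSeq, 7 protein-coding genes were not analysed here.

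The fit over all genes used limma 3.58.1 under R 4.3.3 (lmFit and eBayes; 2 residual and 2.66 prior degrees of freedom), with 1 coefficient that changes sign with the dye orientation and 1 that keeps it, and p-values were adjusted over all genes by Benjamini and Hochberg's method at 0.05. Simulated data of 16504 genes held 200 changed genes. Of changes of 1 log2, 52.0% were called for the sign-changing and 47.5% for the sign-keeping coefficient. Of 200 changes of 0.5 log2, 0 were called for either coefficient. In the dye reading of the real data 2820 genes were called, and the adjustment depends on how many genes change. There Ccl1 at 0.45 and Ccl17 at -0.59 passed, so the simulated shares do not give the power of that reading. Alternatives were centring, scaling, no dye term, probes, robust moderation, other thresholds, averaged array pairs and omission of single arrays. Subtracting a lowess curve (share 0.3) fitted over feature number was added after the values were seen. Every member may be named with its array values. Statistics are given for members that passed and for the 2 with the smallest p per role group and reading, with a few others beside them chosen after their values were seen; of other lists, up to 4 passing genes (2 for markers). The members, lists and groups were chosen with earlier results of these data known. Figures used matplotlib 3.10.9 in Python 3.11.15.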

Additional observations from a re-analysis of the deposited data

Results flagged for a closer look

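Among the chemokine genes, Dixon's gap test gave 6 flags for a value far from the other 3 arrays. There were 104 tests over 52 genes and 2 readings, where chance alone gives about 1 in 20. For the dye reading the signs of arrays 3 and 4 were turned here, so that each value reads as CLA over LA; for the turned reading they were not. Cxcr6 on array 2 stood at 0.82 in both readings, with the others between -0.04 and 0.04. In the dye reading, after that turn, Ccl11 was at 1.30 on array 2 (others 0.40 to 0.44) and Ccl12 at 1.83 on array 2 (others -0.70 to -0.47; as deposited, arrays 3 and 4 were at 0.47 and 0.67). Ccr3 was at -1.36 on array 4, deposited as 1.36 (others 0.12 to 0.30). Cxcr4 was at 0.38 on array 3, deposited as -0.38 (others 0.26 to 0.28), a small gap among values that lay close together. Array 2 gave 4 of the 6 flags, with the single Cxcr6 value counted once in each reading. Outside the named genes, 473 features without a symbol had ratios beyond 10-fold whose sign followed the dyes, and all 473 were negative on arrays 1 and 2.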

How the results depend on the processing

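The count of chemokine genes called in the dye reading, 6 with all arrays, was 2 without a dye term, 14 at adjusted p under 0.1 and 0 under 0.01 (limma). Averaging array 1 with 3 and 2 with 4 gave 0 calls, while averaging array 1 with 4 and 2 with 3 gave 3. With an array left out the count was 0 to 1, and 12 to 16 had an unadjusted p under 0.05. For all genes 2820 became 1202 without a dye term, 5380 and 111 at those thresholds, 125 and 1950 with averaged pairs and 0 to 735 with an array left out. Of the called genes the share higher with CLA was 43.1% with all arrays, 0.8% and 35.4% with the averaged pairs, and 17.8% and 25.6% without array 1 and without array 2. Averaging or leaving out arrays lowers the residual degrees of freedom by construction. Centring, single probes and robust moderation kept all 6 ligands, scaling kept 5, and removal of the trend kept 6 and added Ccr10 (adjusted p = 0.047). The turned reading gave 0 in every setting (8 members at an unadjusted p under 0.05 with all arrays). The dye-reading median of receptors ran from 0.061 to 0.23 with an array left out, and that of lymphoid and homeostatic ligands from -0.098 to 0.031. In the turned reading the median of lymphoid and homeostatic ligands was 0.082 after trend removal, against -0.04, and the cause was not tested. Signs changed only in values of genes that had not passed. For the 6 ligands that passed, the signs on the 4 arrays fixed this in advance wherever a single array was left out. With each array left out in turn, dye-reading values ran as follows: Ccr4 from -0.013 to 0.27, Ccr8 from -0.010 to 0.12, Cxcl2 from -0.23 to 0.40, Cxcl9 from -0.11 to 0.17, Cxcr1 from -0.29 to 0.17 and Cxcr3 from -0.0047 to 0.53. Turned-reading values ran as follows: Ccr1l1 from -0.10 to 0.13, Ccr2 from -0.056 to 0.17 and Ccr3 from -0.060 to 0.77, and Cxcr2 was at -0.0093 after trend removal. Of 360 values of named members under these settings, 319 kept direction and side of the threshold. Most of the 360 were of genes and readings that had not passed with all arrays. A call was lost in 29 values, all of them of the 6 ligands that had passed. No paired analysis was possible because the labels give no pairing of arrays across the dye orientations.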
